A study of Mus musculus with 82 samples.

Results

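Genes whose curated RefSeq transcripts together span more than 500 kb of GRCm38 on chromosomes 1 to 19 numbered 200, of 23634 curated genes on these chromosomes and 24755 in the annotation as a whole. They were chosen by length alone, so no read entered their choice. They comprised 197 protein-coding genes and 3 long non-coding genes, and made up 0.846% of the genes but 16.3% of the summed gene length. Spans ran from 501.8 kb (Edil3) to 2271 kb (Ptprd), with a median of 721.5 kb. Dock1 (503.0 kb) and Car10 (503.4 kb) lay just inside the limit, and Lrrc7 (494.6 kb) and Ank3 (493.7 kb) just outside it. After positions inside other curated genes or small RNA genes had been set aside, 195 of the 200 kept at least 100 kb of sequence of their own and were measured. The other 5 (Schip1, Iqschfp, Gm37013, Gm38666 and Gm38667) overlap other gene models over all or nearly all of their span and were not measured.

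Very long genes consist almost entirely of intron, and a polymerase needs hours to travel from one end to the other. Many of them encode cell adhesion molecules, receptors and scaffold proteins of neurons, and several coincide with common fragile sites, regions of the genome that break when replication is slowed. Run-on assays label the 3′ end of RNA inside engaged polymerases, so a read marks the position of one polymerase, and a long gene offers room to see where along its body these polymerases stood.

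Nascent RNA was labelled in V6.5 mouse embryonic stem cells, a line of mixed C57BL/6 and 129/sv origin that was grown in all groups alike on gelatin with serum and leukaemia inhibitory factor. In scGRO-seq 1 nucleus was sorted into each well of a 96-well plate, in inAGTuC a well held many intact nuclei, and in AGTuC the run-on was carried out on nuclei in bulk with sarkosyl, a detergent that opens nuclei at the concentration used there and was used at a far lower one in the other assays. The scGRO-seq values come from 2512 cells in 35 libraries, summed into 10 batches of 223119 to 4928371 reads, beside 4 inAGTuC libraries of 623265 to 1462003 reads and 2 AGTuC libraries of 2231837 and 4755740 reads from 1 batch, so that assay and batch cannot be told apart for AGTuC. The labels do not say that batches are separate cultures, and p-values measure the spread between batches or libraries alone.

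Before these totals were taken, every molecule with the same position, strand, barcode and UMI in more than 1 library was left out. Such molecules made up 28.9% of the reads of the scGRO-seq libraries, 16.8% of those of inAGTuC and 0.330% of those of AGTuC. The scGRO-seq libraries draw on 288 barcodes in all, 96 each, so that a barcode alone does not tell cells of different libraries apart. Stem cell markers were present throughout: the summed density of 7 of them, Pou5f1, Sox2, Nanog, Klf4, Esrrb, Zfp42 and Tfcp2l1, was 13.3 to 67.98 RPKM (sense reads per kb of gene, scaled to 1000000 reads) in scGRO-seq batches, 19.7 to 37.4 in inAGTuC and 100.3 and 100.4 in AGTuC. Sox2 had no read in at least 1 scGRO-seq batch. The summed density of 6 genes of fibroblasts, the only other cell type looked at, was 0.451 to 1.89, 0.536 to 1.43 and 0.969 to 1.31 RPKM in the same order. In AGTuC Col1a2, Col3a1 and Postn had no read, while Thy1 had a mean of 1.02 RPKM, Col1a1 0.116 and Twist2 0.00451. In scGRO-seq Col1a1 had the highest mean of the 6, 0.626 RPKM.

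Promoters that carried polymerase in these cells are shown first, because the values at gene starts below turn on them. Each window holds 250 bases before and 50 bases after a curated start, taken from RefSeq on GRCm38 and printed along the strand of the gene. Capitals mark GC boxes, the motif GGGCGG read on either strand, which Sp1-type factors are known to bind. Immp2l (a subunit of the mitochondrial inner membrane peptidase), Camta1 (a calmodulin-binding transcription activator) and Ptprk (a receptor-type tyrosine phosphatase) had the most AGTuC reads in the first 500 bp of all members, 224, 189 and 149. Etl4 is shown at 2 of its 3 curated starts, which were picked after their reads were known. Its upstream start had 0 AGTuC reads and its inner start had 62.
Immp2l, chr12:41023840-41024139, plus strand: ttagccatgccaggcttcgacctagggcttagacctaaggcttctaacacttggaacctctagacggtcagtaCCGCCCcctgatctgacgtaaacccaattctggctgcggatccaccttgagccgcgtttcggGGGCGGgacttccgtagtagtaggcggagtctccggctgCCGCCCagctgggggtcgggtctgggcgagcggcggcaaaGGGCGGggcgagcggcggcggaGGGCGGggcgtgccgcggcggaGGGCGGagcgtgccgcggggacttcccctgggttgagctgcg
Camta1, chr4:151861719-151862018, minus strand: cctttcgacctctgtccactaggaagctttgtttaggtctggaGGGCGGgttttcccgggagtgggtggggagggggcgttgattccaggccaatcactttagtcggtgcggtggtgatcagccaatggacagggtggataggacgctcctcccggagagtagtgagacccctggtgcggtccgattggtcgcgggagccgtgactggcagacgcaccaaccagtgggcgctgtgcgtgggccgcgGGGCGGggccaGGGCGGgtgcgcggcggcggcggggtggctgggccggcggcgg
Ptprk, chr10:28074570-28074869, plus strand: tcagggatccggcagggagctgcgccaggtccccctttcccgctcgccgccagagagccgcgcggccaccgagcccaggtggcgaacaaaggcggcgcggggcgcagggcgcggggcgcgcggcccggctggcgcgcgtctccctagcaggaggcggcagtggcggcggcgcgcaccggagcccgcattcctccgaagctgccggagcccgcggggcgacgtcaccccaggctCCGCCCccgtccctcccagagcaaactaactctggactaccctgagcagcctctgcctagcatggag
Etl4 upstream start, chr2:20289663-20289962, plus strand: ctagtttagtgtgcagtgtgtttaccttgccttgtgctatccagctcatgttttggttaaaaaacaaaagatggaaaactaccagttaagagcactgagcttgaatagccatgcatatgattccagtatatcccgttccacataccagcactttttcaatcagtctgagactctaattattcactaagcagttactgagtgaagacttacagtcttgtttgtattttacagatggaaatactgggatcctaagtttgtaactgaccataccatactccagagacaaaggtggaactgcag
Etl4 inner start, chr2:20519263-20519562, plus strand: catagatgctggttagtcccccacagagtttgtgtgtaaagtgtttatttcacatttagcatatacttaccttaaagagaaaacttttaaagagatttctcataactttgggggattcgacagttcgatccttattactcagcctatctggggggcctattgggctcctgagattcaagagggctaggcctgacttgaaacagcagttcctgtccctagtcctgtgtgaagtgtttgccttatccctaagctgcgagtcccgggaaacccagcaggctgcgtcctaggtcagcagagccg
The Immp2l window holds 6 GC boxes, that of Camta1 3 and that of Ptprk 1, and neither Etl4 window holds any. CpG dinucleotides numbered 32, 28 and 38 in the first 3 windows, 1 in the upstream and 6 in the inner window of Etl4. None of the 5 holds TATAAA, the core of the TATA box, on either strand. Over all 32851 promoter windows of the annotation, GC boxes were found in 35.7% and TATA boxes in 13.6%. Of the 147 measured genes with a window at their first start, 75 (51.02%) had a GC box and 15 (10.2%) had a TATA box. AGTuC reads of the first 500 bp had their median 77 bp after the start for Camta1, 101 bp for Ptprk and 121 bp for Immp2l, and 192.5 bp after the inner start of Etl4. Less than 100 bp after the start lay 142 of 189 reads for Camta1, 68 of 149 for Ptprk and 49 of 224 for Immp2l. At the inner start of Etl4 it was 2 of 62. The windows end 50 bases after a start, so that sequence further in was not searched for GC boxes.

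Genes over 500 kb took a larger share of reads in the assays on intact nuclei than in AGTuC. In scGRO-seq 2.52% ± 0.354 (SD, n = 10 batches, 2.01% to 3.13%) of all reads were sense reads on these genes. In inAGTuC the 4 libraries had 1.91%, 2.20%, 2.40% and 2.80%, and in AGTuC the 2 libraries had 0.786% and 0.772%. Batches of scGRO-seq and libraries of inAGTuC overlapped, and AGTuC lay below all of them. The difference of scGRO-seq from AGTuC was 1.74 percentage points (p = 0.0152 by exact permutation, two-sided, and no smaller p can come from 10 batches against 2 libraries). From inAGTuC it was 0.196 points (p = 0.373, exact permutation). For comparison, genes of 250 to 500 kb took 4.07% ± 0.583 of reads in scGRO-seq, 3.88% ± 0.764 in inAGTuC and 2.28% ± 0.0249 in AGTuC, and genes of 100 to 250 kb took 9.84% ± 2.02, 10.19% ± 2.82 and 9.97% ± 0.141 (SD over 10, 4 and 2). The difference between length classes was not tested. In Exp208, of the 10 batches the one that also holds inAGTuC libraries, the shares were 2.33% and 2.22% in scGRO-seq and 2.20% and 2.40% in inAGTuC. Antisense reads differed between the assays as well. They amounted to 58.7% ± 15.0 (24.3% to 72.5%) of the sense reads on these genes in scGRO-seq, to 35.4%, 40.9%, 68.3% and 115% in inAGTuC and to 17.8% and 19.9% in AGTuC, and their part in the difference was not tested.

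Read density was widely spread among the long genes. As sense reads per kb of gene outside other genes, scaled to 1000000 reads (RPKM), its median over the 195 genes was 0.0976 in scGRO-seq, with a range from 0.0290 to 1.16. The median lay within the range of 1092 olfactory receptor genes, which are silent outside the nose, over scGRO-seq batches (0.0167 to 0.0988). The 20 densest genes in pooled scGRO-seq held 35% of the sense reads of all members on 7.74% of their unmasked length, and 56.3% of their AGTuC reads. Across the 195 genes, which are not independent replicates, Spearman's rho of density was 0.930 between scGRO-seq and inAGTuC and 0.804 between scGRO-seq and AGTuC, assays that share the genome sequence and its mappable positions. Length and scGRO-seq density had a rho of -0.268.

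**Figure D1:**
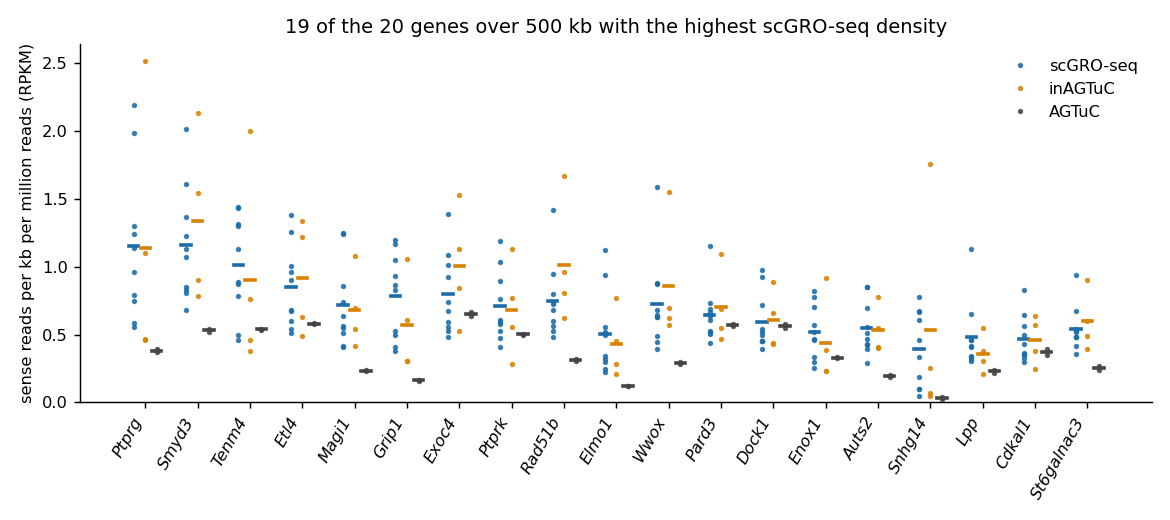
Sense RPKM (vertical axis) on 19 of the 20 genes over 500 kb that were densest in pooled scGRO-seq, ordered by the pooled value. Points are 10 scGRO-seq batches (blue), 4 inAGTuC libraries (orange) and 2 AGTuC libraries (grey), and horizontal bars their means. The scGRO-seq means run from 0.396 (Snhg14) to 1.16 (Smyd3), and the AGTuC means from 0.0336 (Snhg14) to 0.653 (Exoc4).

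Ptprg, a receptor-type tyrosine phosphatase at chr14:11553553-12242041, had 0.556 at the lowest, 1.05 at the median and 2.19 at the highest of the 10 scGRO-seq batches. It had 0.471, 1.10, 0.457 and 2.52 in the 4 inAGTuC libraries and 0.393 and 0.369 in AGTuC. Every scGRO-seq batch lay above both AGTuC libraries, and the inAGTuC libraries spread more widely than the batches. Its relative Ptprk (chr10:28074820-28597397) had 0.409, 0.600 and 1.19 at the lowest, median and highest scGRO-seq batch and 0.497 and 0.507 in AGTuC, so that here the assays overlapped. Pard3, a core protein of cell polarity, also overlapped, with 0.438 to 1.15 in scGRO-seq and 0.577 and 0.561 in AGTuC. Magi1, a scaffold protein of cell junctions, had 0.411 to 1.25 in scGRO-seq against 0.236 and 0.228 in AGTuC. Elmo1 and Dock1, whose products act together on the GTPase Rac, had 0.225 to 1.12 and 0.392 to 0.974 in scGRO-seq. In AGTuC Elmo1 had 0.118 and 0.119, below every batch, and Dock1 had 0.577 and 0.545, within their range.

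Smyd3, a lysine methyltransferase (chr1:178951960-179518041), had 0.682, 1.10 and 2.01 at the lowest, median and highest scGRO-seq batch and 0.543 and 0.520 in AGTuC, without overlap. Exoc4, a subunit of the exocyst, had 0.485, 0.705 and 1.39 in scGRO-seq and the highest AGTuC mean of the 20, from 0.669 and 0.637. Rad51b, a gene of recombination repair, had 0.482 to 1.42 in scGRO-seq and 0.302 and 0.323 in AGTuC. Cdkal1, an enzyme that modifies transfer RNA, had 0.297 to 0.829 and 0.394 and 0.349, and St6galnac3, a sialyltransferase, had 0.358 to 0.939 and 0.269 and 0.242. Neighbours in the order of scGRO-seq means did not differ beyond their spread: Smyd3 and Ptprg were at 1.16 ± 0.414 and 1.15 ± 0.559 (SD, n = 10), and Cdkal1, at the lower end among the protein-coding genes, was at 0.466 ± 0.169. The long non-coding gene Snhg14, which hosts clusters of small nucleolar RNAs in an imprinted region, varied most of the 20 in relation to its mean. Its scGRO-seq density ran from 0.0499 to 0.778 RPKM, 63.8% of its reads lay in 3 windows of 50 bp, and its AGTuC density was 0.0286 and 0.0385 RPKM.

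Lists of related genes differed in their median density in scGRO-seq, which is given as a description. The median was 0.139 over 14 measured members of a list of kinases, phosphatases and phosphodiesterases, which also holds the scaffolds Magi1, Magi2, Pard3 and Pard3b, and 0.133 over 13 regulators of transcription and RNA binding. It was 0.0716 over 32 synaptic and adhesion genes, 0.0963 over 17 receptors and channels and 0.0944 over 17 fragile site genes. In AGTuC the same medians were 0.0150, 0.00914, 0.00219, 0.00277 and 0.00846, beside 0.00689 over all 195. Olfactory receptor genes had 0.0167 to 0.0988 in scGRO-seq batches and 0.00389 and 0.00548 in AGTuC. The scGRO-seq medians of synaptic genes, receptors and channels, and fragile site genes lay within that range, and those of the other lists above it. In AGTuC the medians of synaptic genes and of receptors and channels lay below both values. Single genes spread far around them: synaptic and adhesion genes ran from 0.0464 (Lrp1b) to 1.01 (Tenm4, a teneurin of the cell surface), and fragile site genes from the same Lrp1b to 0.799 (Exoc4).

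Of the 5 longest genes Macrod2 ranked 107 of 195 by pooled scGRO-seq density, near the middle, and the other 4 ranked between 129 and 176. Ptprd, another receptor-type phosphatase, had 0.0201, 0.0530 and 0.0952 at the lowest, median and highest scGRO-seq batch and 0.00602 and 0.00820 in AGTuC. Cntnap2, a neurexin-like adhesion protein, had 0.0140, 0.0513 and 0.171 and 0.00480 and 0.00516. Lsamp, an adhesion protein of the limbic system, had 0.0224, 0.0585 and 0.147 and 0.000612 and 0.00143. Lrp1b, a lipoprotein receptor, and Macrod2, a hydrolase of ADP-ribose marks, had medians of 0.0458 and 0.0790. For comparison, 1092 olfactory receptor genes, which are silent outside the nose, had a sense density of 0.0454 ± 0.0244 (SD, n = 10, 0.0167 to 0.0988) in scGRO-seq and of 0.00389 and 0.00548 in AGTuC. The ranges of all 5 genes over scGRO-seq batches overlapped with that of the olfactory receptor genes.

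Reads on the 2 strands were compared gene by gene within batches, to ask which of the long genes carried more sense than antisense reads. Of the 195 members, 70 (35.9%) had more sense reads and 2 (1.03%) more antisense reads at an adjusted p below 0.05 (limma on voom values with batch as a term, Benjamini-Hochberg over all genes tested). Over all 16985 genes tested these shares were 49.9% and 1.61%. Sense reads were higher for 58.6% of genes of 50 to 100 kb, 62% of those of 100 to 250 kb and 51.7% of those of 250 to 500 kb, and antisense reads for 2.09% of the last of these classes. The share of members with more sense reads lay below the background. The median log2 ratio of sense over antisense was 0.34 over the members and 0.88 over all genes tested. Sense density exceeded antisense density in all 10 batches for 40 members, a count given without a share over all genes tested and so without a background.

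**Figure D2:**
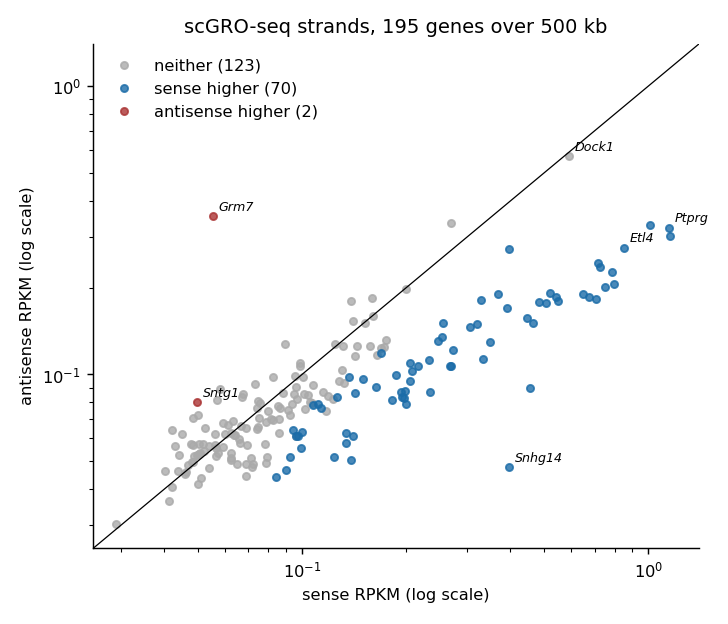
Mean scGRO-seq antisense density (vertical axis) against mean sense density (horizontal axis), both in RPKM on log scales, for the 195 measured genes. Blue points are the 70 genes with more sense reads, red points the 2 with more antisense reads and grey points the 123 others, and the line marks equal density. Most of the denser genes lie well under the line, with Dock1 close to it and Grm7 far above it.

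Of the 20 densest genes 19 had more sense reads, a description only, since the 20 were chosen for their sense density in the same reads. Ptprk had a log2 ratio of 2.05 ± 0.22 (SE, adjusted p = 3.1e-08, limma), Ptprg of 1.97 ± 0.20 (adjusted p = 1.0e-08) and Exoc4 of 1.97 ± 0.20 (adjusted p = 1.6e-08), each with more sense reads in 10 of 10 batches. Snhg14 had the highest ratio of the 20, 3.09 ± 0.30 (adjusted p = 8.4e-09), and 1.66 without windows in which reads pile up, but in AGTuC it had 147 sense and 181 antisense reads. The exception was Dock1, whose antisense density of 0.572 ± 0.532 (SD, n = 10) was close to its sense density of 0.592 ± 0.207. Its ratio was 0.21 ± 0.28 (adjusted p = 0.562), and without pile-ups, windows of 50 bp that hold at least 20 reads and over 1% of a gene's reads on a strand, it was 1.37 ± 0.19 (adjusted p = 1.3e-08). In AGTuC Dock1 had 1731 sense and 43 antisense reads.

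By list, 8 of 14 kinases, phosphatases, phosphodiesterases and scaffolds had more sense reads and none had more antisense reads, with a median log2 ratio of 0.54. This and the counts of the other lists are descriptions, to be read beside the 35.9% of members and 49.9% of all genes tested that had more sense reads and the medians of 0.34 and 0.88. The 8 were the receptor-type phosphatases Ptprg, Ptprk and Ptprn2, the last with 0.49 ± 0.20 (adjusted p = 0.0421, limma), the scaffolds Magi1 and Pard3, the phosphodiesterase Pde4d, the diacylglycerol kinase Dgkb, and Fhit, a dinucleoside hydrolase. Among transcription and RNA-binding regulators 7 of 13 had more sense reads, with a median of 0.53, among them Auts2 at 1.60 ± 0.18 (SE), the forkhead factor Foxp1 at 0.86 ± 0.20, the nuclear receptor Rora at 1.03 ± 0.20 and the zinc finger factor Mecom at 1.14 ± 0.24. Another nuclear receptor of this list, Esrrg, had 1.13 ± 0.28, and 0.26 (adjusted p = 0.323) without pile-ups, which held 48.9% of its reads. Fragile site genes had 6 of 17, with a median of 0.37, among them Exoc4, Auts2 and Immp2l, the oxidoreductase Wwox at 1.54 ± 0.18, and Fhit at 0.60 ± 0.20 (adjusted p = 0.0107).

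Of 32 synaptic and adhesion genes 6 had more sense reads, with a median of 0.09: Tenm4 at 1.73 ± 0.20, the catenin Ctnnd2 at 1.07 ± 0.24, and Dcc, Cntn4, Nrxn3 and Ntm between 0.50 and 0.84. Without pile-ups Dcc (0.09), Nrxn3 (0.13) and Ntm (0.45) were no longer called, and Cntn4 turned to -0.09. Of 17 receptors and channels 2 had more sense reads, with a median of 0.24, the calcium release channel Ryr2 at 0.98 ± 0.22 and the potassium channel Kcnma1 at 0.69 ± 0.24, which had 0.45 (adjusted p = 0.0751) without pile-ups. Lists overlap: Lsamp, Csmd1 and Lrp1b stand in the fragile site list and the synaptic list. Fhit and Magi2 stand in the fragile site list and that of kinases and phosphatases. Auts2 and Rbfox1 stand in it and in that of transcription and RNA-binding regulators, and Dlg2 in it and in that of receptors and channels.

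The genes with more antisense reads were Grm7, a metabotropic glutamate receptor, and Sntg1, a syntrophin, which stands in none of the lists and is named for this result. Grm7 had a sense density of 0.0554 ± 0.0272 and an antisense density of 0.353 ± 0.718 (SD, n = 10), a log2 ratio of -1.67 ± 0.45 (SE, adjusted p = 0.00253, limma), although sense reads were higher in 3 of 10 batches. Without pile-ups its ratio was -0.02, and in AGTuC it had 27 sense and 15 antisense reads. Sntg1 had a log2 ratio of -0.61 ± 0.23 (adjusted p = 0.0264), with more antisense reads in 9 of 10 batches. In AGTuC it had 114 sense and 1196 antisense reads, and no sense pile-up in scGRO-seq. Without pile-ups, which were left out on both strands, neither gene was called. Pile-ups on the antisense strand were not counted by gene. The number of genes with more antisense reads was 1 without Exp208 or by limma-trend, 4 with all deposited reads and 7 with all scGRO-seq libraries. Sense and antisense density went together across the 195 genes in scGRO-seq (Spearman's rho 0.806).

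Along the gene, sense reads were denser towards the start than towards the end. In 20 bins of equal relative width, summed over the 195 genes, scGRO-seq density in RPKM was 0.214 ± 0.0441 in the first bin, 0.141 ± 0.0236 in the tenth and 0.137 ± 0.0352 in the last (SD, n = 10). The last 5 bins were less dense than the first 5 in 10 of 10 batches, with a log2 ratio of -0.37 ± 0.30 (SD; p = 0.00195 by flipping the signs of batches exactly, two-sided, below which 10 batches cannot go). Batches ranged from -1.09 in Exp156 to -0.08 in Exp260b, and Exp156 was also the batch with the lowest antisense share, 24.3%. The inAGTuC libraries had -0.30, -0.67, -0.12 and -0.64 and the AGTuC libraries -0.50 and -0.50. These bins include the first 500 bp, which over 186 genes held 4.78% and 5.20% of the AGTuC sense reads and 0.274% in scGRO-seq. How much of the AGTuC ratio these reads make up was not tested. Further in, AGTuC density rose from 0.0360 RPKM in bin 8 to 0.0577 in bin 20. Antisense reads of scGRO-seq had a mean log2 ratio of -0.003 ± 0.282, and those of AGTuC were denser towards the end of the gene, at 1.08 and 0.97.

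**Figure D3:**
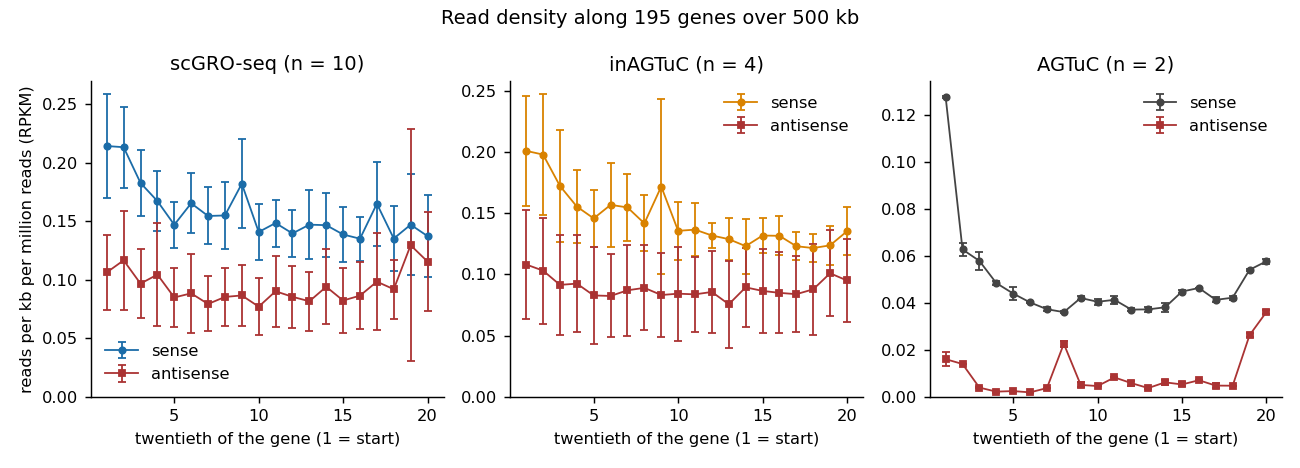
Mean read density along 195 genes over 500 kb (vertical axis, RPKM) in 20 bins from start to end (horizontal axis), for sense (circles) and antisense reads (squares) in each assay, with the SD over 10 batches or 4 or 2 libraries. Vertical scales differ between panels and start at 0. Sense density falls from 0.214 to 0.137 in scGRO-seq and from 0.201 to 0.135 in inAGTuC, and in AGTuC from 0.128 in the first bin to 0.0627 in the second.

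The slope was also set against that of shorter long genes. The difference of the log2 ratio was -0.02 ± 0.21 from 477 genes of 250 to 500 kb (exact sign-flip, p = 0.799) and -0.09 ± 0.29 from 1593 genes of 100 to 250 kb (p = 0.393, exact). With other genes inside the spans counted the first difference turned to 0.15 (p = 0.00586, exact), and without pile-ups the second was -0.23 (p = 0.00195, exact). With every library labelled scGRO-seq, which form 14 batches, the slope of the members was -0.11 (p = 0.496, exact), and in the genes over 750 kb it was -0.16 (p = 0.0703, exact). With antisense density subtracted it was -0.82 ± 0.43 over 9 batches, without Exp263, where nothing was left to take a ratio of at 1 end.

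In steps of 50 kb from the start, to which a gene contributes where it has sequence outside other genes, most of the decline was over within the first 250 kb. Snhg14 has next to no such sequence in the first step. Scaled by the first step, scGRO-seq density was 93.7% at 50 to 100 kb, 77.7% at 100 to 150 kb, 70.1% at 200 to 250 kb and 71.9% at 450 to 500 kb. In inAGTuC the last of these steps was at 71.4% and in AGTuC at 55.04%. The log2 ratio of the last step over the first, without the first 500 bp, was -0.47 ± 0.34 in scGRO-seq (10 of 10 batches below 0, exact sign-flip, p = 0.00195), -0.50 ± 0.31 in inAGTuC (SD, n = 4) and -0.86 in both AGTuC libraries. Without pile-ups the scGRO-seq value was -0.71, and with antisense density subtracted it was -0.79 ± 0.45 over 9 batches, without Exp263. In genes over 750 kb the scGRO-seq value was -0.12 ± 0.46 (p = 0.412, exact).

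Single genes departed from the mean profile in both directions. In pooled scGRO-seq 123 of the 195 genes were denser in their first 5 bins than in their last 5, among them 47 of the 70 with more sense than antisense reads, whose median log2 ratio was -0.71, and 76 of the 125 others, with a median of -0.23. These counts and the next are given without a share over all genes or shorter classes, and so without a background. Of the 20 densest genes 16 were denser in their first 5 bins than in their last 5. Grip1, a scaffold of glutamate receptors, had the steepest fall of these, a log2 ratio of -2.79 in scGRO-seq and -2.77 in inAGTuC, beside -1.26 in AGTuC. From start to end, consecutive sets of 5 bins of Ptprg held 34.2%, 40.2%, 14.6% and 11.03% of its scGRO-seq reads, and 35.5%, 24.6%, 20.3% and 19.7% of its AGTuC reads. In bin 6 of Ptprg scGRO-seq density was 2.34 ± 1.24 RPKM, after 1.015 ± 0.497 in bin 4. In inAGTuC it was 2.46 ± 2.28 after 1.196 ± 0.860, while AGTuC had 0.343 after 0.510. Bin 5, between them, had 1.07 ± 0.588 in scGRO-seq, 0.887 ± 0.721 in inAGTuC and 0.371 in AGTuC, where bin 6 was thus close to bin 5. Antisense density of scGRO-seq also rose, from 0.265 ± 0.251 in bin 5 to 0.561 ± 0.431 in bin 6. Sense density of Wwox also had an inner peak, with 0.383 ± 0.253 in bin 6 and 1.75 ± 1.202 in bin 7 in scGRO-seq. The same bins had 0.458 ± 0.168 and 1.54 ± 1.11 in inAGTuC, and 0.271 and 0.348 in AGTuC. These inner peaks were noticed in the profiles and were not tested, and 1 window of 50 bp held 7.46% of the Wwox reads.

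**Figure D4:**
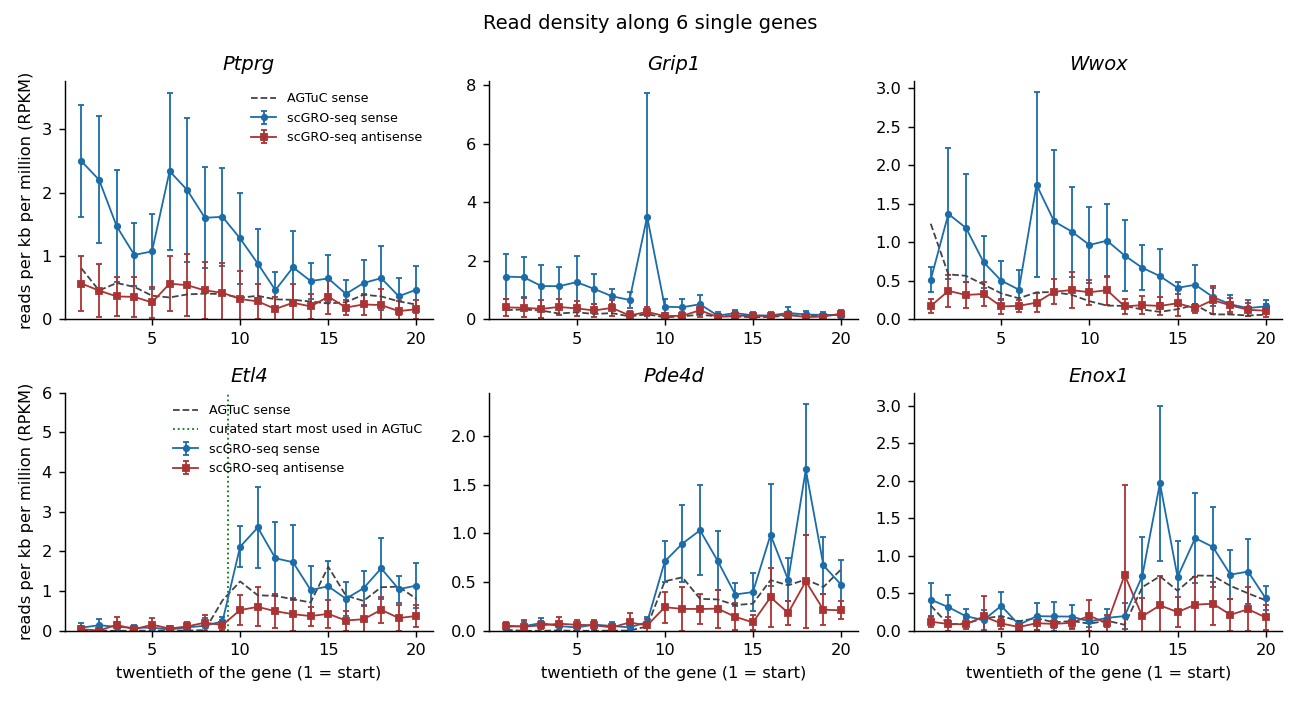
Read density (vertical axis, RPKM, each panel on its own scale from 0) in 20 bins from start to end (horizontal axis) of 6 genes chosen to show different courses, with the mean and SD of 10 scGRO-seq batches for sense (blue) and antisense reads (red) and the mean of 2 AGTuC libraries for sense reads (dashed). The dotted line in Etl4 marks the inner curated start, 229.6 kb into the span. The upper genes are dense from the start on, Etl4 and Pde4d from bin 10 on and Enox1 from bin 13 on.

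A few genes were sparse over a long first stretch and dense after it. Etl4 had a scGRO-seq density of 0.125 ± 0.199 RPKM in bin 8, 0.238 ± 0.0997 in bin 9 and 2.12 ± 0.517 in bin 10, and a log2 ratio of its last over its first 5 bins of 4.28. The inner start shown above lies 229.6 kb into the span. Before it density was 0.0866 ± 0.0287 and after it 1.45 ± 0.547, a 16.8-fold difference seen in 10 of 10 batches, and in AGTuC 9 reads lay before it and 2103 after it. The density before the inner start lay within the range of the olfactory receptor genes over batches. Dab1, Nav2 and the further genes of this kind are named for this result. Dab1, an adaptor of the reelin pathway, had 0.0755 ± 0.0311 before and 0.667 ± 0.366 after a start 748.0 kb in, 8.83-fold, and Nav2, a neuron navigator, 0.154 ± 0.0763 and 0.561 ± 0.180 around a start 287.1 kb in, 3.63-fold. Tenm4 had 0.144 ± 0.120 and 1.06 ± 0.385 around a start 39.4 kb in, 7.39-fold, but its first stretch is short, 5.32% of the span. In AGTuC the density of Tenm4 was 0.364 before that start and 0.549 after it.

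Such starts were found from AGTuC reads alone, as the curated start of a gene with the most reads in its first 500 bp, with at least 10. Of 60 genes with such a start it was the first curated start in 51 and a start further in for 9: Etl4, Ank2, Rora, Frmd4a, Foxp1, Dab1, Nav2, Tenm4 and Cntnap2. A start further in was possible only in the 67 measured genes with 2 or more curated starts. The other 128 have 1, so that the 51 include genes for which the first was the only choice. In Etl4, Dab1, Nav2 and Tenm4, 4 of the 9, scGRO-seq density was higher after the start in 10 of 10 batches, and Frmd4a and Foxp1 followed with 9 of 10. Ank2 had the same density on either side, 0.255 and 0.255, and Rora a lower one after the start, 0.334 before and 0.215 after. In AGTuC Ank2 had 0.0466 before and 0.104 after the start and Rora 0.0584 and 0.167. Here and for the genes above, the AGTuC reads that chose a start, 47 for Ank2 and 39 of 99 for Rora, are counted after it, so that AGTuC densities around the starts are descriptions. In inAGTuC Ank2 had 0.145 and 0.245, and Rora 0.266 and 0.265. No start of 79 genes had a counted AGTuC read. Reads at starts inside other genes had been set aside and could not count, and 186 of the 195 genes have their first 500 bp wholly outside other genes. Pde4d, a cyclic AMP phosphodiesterase, has 1 curated start, with 0 AGTuC reads, and yet its scGRO-seq density went from 0.0882 ± 0.0555 RPKM in bin 9 to 0.713 ± 0.209 in bin 10, and its AGTuC density from 0.0453 to 0.509. Enox1 also has 1 curated start, but unlike that of Pde4d it had 17 AGTuC reads. Its scGRO-seq density was 0.415 ± 0.225 RPKM in bin 1, 0.196 ± 0.170 in bin 12 and 1.97 ± 1.03 in bin 14. In AGTuC the same bins of Enox1 had 0.337, 0.0802 and 0.727.

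At the start itself AGTuC differed from the other assays. Over the 186 genes whose first 500 bp lie outside other genes, these 500 bp held 4.78% (95% Wilson interval 4.47% to 5.11%) and 5.20% (4.97% to 5.43%) of the sense reads in the AGTuC libraries. In scGRO-seq the share was 0.274% ± 0.130 (SD, n = 10), from 0.113% in Exp260b (0.0893% to 0.143%) to 0.490% in Exp264a (0.397% to 0.605%). In inAGTuC it was 0.317%, 0.332%, 0.402% and 0.168%. The assays on intact nuclei overlapped and lay far below AGTuC. The difference of scGRO-seq from AGTuC was -4.71 percentage points (two-sided exact permutation, p = 0.0152) and from inAGTuC -0.0308 points (p = 0.675, exact permutation). For genes of 250 to 500 kb the shares were 0.420% ± 0.120, 0.587% ± 0.222 and 6.76% ± 0.490 in scGRO-seq, inAGTuC and AGTuC (SD over 10, 4 and 2). When reads of 1 barcode within 50 bp were counted once, the first difference was -0.589 points, but an AGTuC library carries a single barcode for all of its nuclei, so that this also merges reads of different nuclei.

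A few sparse genes held most of their AGTuC reads there. Of 270 AGTuC reads on Macrod2 50.7% lay in the first 500 bp, and of 151 on Sugct, an enzyme of glutarate metabolism, 77.5%, where scGRO-seq had 0.504% of 2181 reads and 0.297% of 674. Both genes were noticed after their values were seen. For Immp2l the AGTuC share was 31.2% of 719 reads, for Camta1 10.2% of 1853 and for Ptprk 8.10% of 1839. In scGRO-seq these shares were 0.140%, 0.533% and 0.457%, from 5, 15 and 22 reads, so that at this depth they rest on few molecules.

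Every one of the 2512 cells had a sense read on at least 1 of the measured genes. The median cell, of 3435.5 UMIs, had 89 such reads on 58 genes. Of all combinations of a gene and a cell 32.97% held a read, and of those with a read 38.9% held 2 or more. Among the 20 densest genes the share of cells with a read ran from 60.7% for St6galnac3 to 91.3% for Ptprg. These shares grow with length and with the depth of a cell and nothing was subtracted from them for reads that also fell on the opposite strand.

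Cells with 2 or more reads on 1 gene were not detectably more frequent than the depth of the cells and the reads of the gene would give. Combinations of a gene and a cell with 2 or more sense reads numbered 62823, against 62743 expected when the reads of each library were dealt to its cells with the number of reads of each cell kept. The log2 ratio was 0.007 ± 0.034 over batches (SD, n = 10, exact sign-flip, p = 0.516). In inAGTuC, where a barcode stands for the many nuclei of a well, it was 0.007 ± 0.024 (SD, n = 4). By gene, the observed number of cells with 2 or more reads was 1855 for Ptprg against 1854 expected, 1570 for Smyd3 against 1564 and 1262 for Etl4 against 1236. Over the 20 densest genes the ratio ran from 0.973 (Elmo1) to 1.021 (Etl4). With pile-ups left out the log2 ratio was 0.022 (exact p = 0.0566).

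Distances between 2 reads of 1 cell on 1 gene departed from this expectation at the closest range. Pairs less than 50 bp apart numbered 34168 of 417028 pairs (8.19%), against 16692 expected (4.18%). The log2 ratio of observed over expected pairs was 1.61 ± 1.55 (SD, n = 10), above 0 in 10 of 10 batches, with an adjusted p of 0.0156 (exact sign-flip, Benjamini-Hochberg over 8 distance classes). It differed widely between batches, with 4.59 in Exp160, 4.04 in Exp156, 1.78 in Exp208 and 1.77 in Exp211, and between 0.27 and 0.43 in Exp260, Exp260b, Exp263 and Exp264a. With pile-ups left out it was 3.41. The inAGTuC libraries had 0.86, 1.61, 1.85 and 0.07. Genes of 100 to 250 kb had the same excess within the spread between batches, the difference of the log2 ratio being -0.02 ± 0.49 (exact p = 0.900). The source of these close pairs was not tested.

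**Figure D5:**
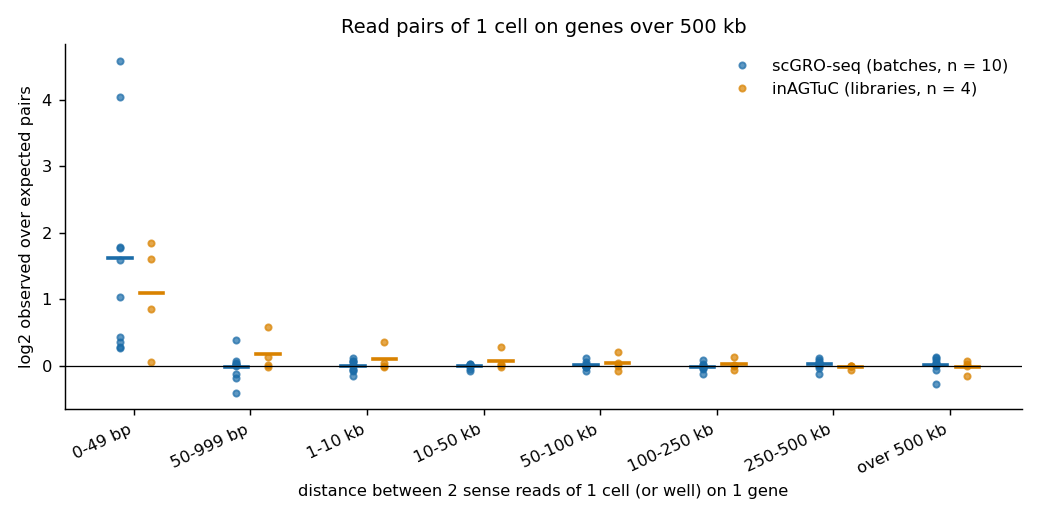
Log2 ratio of observed over expected pairs of sense reads of 1 cell or well on 1 gene (vertical axis) by the distance between the reads (horizontal axis), for 10 scGRO-seq batches (blue) and 4 inAGTuC libraries (orange), with bars at the means and a line at 0. Pairs within 50 bp lie above 0 in every batch, from 0.27 to 4.59. In the other classes batches scatter around 0, and the inAGTuC library Exp234_c11 lies above 0 from 50 bp to 250 kb.

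In the remaining 7 classes, from 50 bp to over 500 kb, mean log2 ratios lay between -0.01 and 0.02, each with an adjusted p of 0.973 (exact sign-flip). In the genes over 750 kb alone, pairs at 10 to 50 kb were more than expected, with a log2 ratio of 0.10 (adjusted p = 0.0391, exact), where all members had -0.002. The 1 to 10 kb class held 15162 pairs against 15520 expected, a log2 ratio of 0.001 ± 0.085. The 250 to 500 kb class, which genes under 250 kb cannot fill, held 99354 against 98634, 0.024 ± 0.066, and pairs over 500 kb apart numbered 38957 against 38430, 0.012 ± 0.114. Against genes of 100 to 250 kb none of the 5 classes that both can fill passed the test, with adjusted p from 0.295 for the classes between 50 bp and 100 kb to 0.900 within 50 bp. Among the 20 densest genes alone, a choice made after the data were seen, pairs at 100 to 250 kb were fewer than expected, with a log2 ratio of -0.05 ± 0.05 (adjusted p = 0.0313, exact), and the other classes past 50 bp had adjusted p of 0.422 to 0.984. In inAGTuC, pairs at 1 to 10 kb had a log2 ratio of 0.36 in Exp234_c11, the library whose antisense reads exceeded its sense reads, and of -0.01 to 0.04 in the other 3.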

How the data were processed

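The authors deposited 1 list of mapped molecules per library. The processing notes name cutadapt, Bowtie2, UMI-tools and the build mm10, and the score of each line is the deposited mapping quality, which the authors' aligner gave. The strand of a read is opposite to that of its RNA, and the position of the RNA 3′ end was used. Of 82 libraries, 76 are scGRO-seq, 4 inAGTuC and 2 AGTuC. Of scGRO-seq, 10 batches (53 libraries), those in the colour key of the study's plot of reads per cell, were used, and an scGRO-seq list that repeats an inAGTuC library was left out. Molecules found in more than 1 library were dropped. Cells needed at least 1000 UMIs and a sense read on 750 genes, and libraries 24 such cells, which 35 of the 53 held. The study's filter also counts enhancers, which were not used here.

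RefSeq curated transcripts on GRCm38, the same sequence as mm10, gave gene spans. Positions in other curated genes or small RNA genes were left out of reads and lengths. Expected numbers of cells with 2 or more reads and of pairs by distance were computed exactly for reads dealt at random to the cells of a library. Batches were compared by exact sign-flip or permutation tests, two-sided, and strands by limma 3.58.1 (R 4.3.3) on voom values over all genes with at least 20 reads, with batch as a term and Benjamini-Hochberg adjustment. Other steps used Python 3.11.15, numpy 2.4.6, scipy 1.17.1 and pandas 2.3.3. The tests were tried on simulated data. For pairs, simulated reads were spread evenly along a gene, without pile-ups, and extra pairs were planted at 1 to 10 kb only. An excess of pairs within 50 bp was not simulated. Wilson intervals cover counting error only, since amplified molecules and shared nuclei are not independent.

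Named genes were the 20 densest in pooled scGRO-seq, the 5 longest, those of the 5 gene lists and, for promoters, the 3 with the most AGTuC reads in the first 500 bp. Results of some named genes are not reported here. The genes and lists were chosen with earlier results of these data known. Alternatives were other length limits, windows and cell filters, all deposited reads, every scGRO-seq library, a mapping quality of at least 20, other genes counted, the longest transcript as span, pile-ups left out, near reads counted once, limma-trend with a pseudocount of 0.5, no read minimum and leaving out each batch or library. Those on the 20 densest genes and on Exp208 alone were added after the data were seen.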

Additional observations from a re-analysis of the deposited data

Results flagged for a closer look

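Of 68 groups of 4 to 10 values tested, 9 had 1 value far from the rest by a Dixon gap test, and chance flags about 1 in 20 groups. Exp156, the batch with the fewest reads, accounts for 4 of the 9. Its log2 ratio of the last over the first 5 bins was -1.093, with the nearest batch at -0.55. Its sense density was 1.42 RPKM on Rad51b (nearest 0.949), 1.59 on Wwox (nearest 0.883) and 1.15 on Pard3 (nearest 0.733).

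Exp246 had 1.13 RPKM on Lpp, with the nearest batch at 0.653. In Exp208 the log2 ratio of observed over expected pairs over 500 kb apart was -0.27, with the nearest at -0.07. In inAGTuC, Exp234_c11 had a log2 ratio of 0.36 for pairs at 1 to 10 kb (nearest 0.04), Exp208_c14 had 1.55 RPKM on Wwox (nearest 0.698), and Exp261_c16 had 1.76 RPKM on Snhg14 (nearest 0.251).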

How the results depend on the processing

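Under all alternatives 370 values of the main comparisons kept their direction and side of the threshold, or stayed within 1.5 times as counts, and 17 did not. Of the other values, mostly of single genes, 2113 kept direction and side, 33 gained significance, 53 lost it and 2 turned. With all scGRO-seq libraries the profile ratio was -0.11 (p = 0.496, exact). In genes over 750 kb it was -0.16, the 450 to 500 over 0 to 50 kb ratio was -0.12, and pairs at 10 to 50 kb turned from -0.002 to 0.10 (adjusted p = 0.0391, exact). In the 20 densest genes pairs at 100 to 250 kb had -0.054. Relative to genes of 250 to 500 kb the profile turned to 0.15 (p = 0.00586, exact) with other genes counted. Without pile-ups Cntn4 turned to -0.086. Genes with more sense reads numbered 129 of 315 over 400 kb and 23 of 90 over 750 kb, beside 70 of 195 over 500 kb and 49.9% of all genes tested. Genes with more antisense reads numbered 6 over 400 kb, 4 with all deposited reads, 7 with all scGRO-seq libraries, 0 without pile-ups and 1 by limma-trend. Near reads counted once moved the promoter difference to -0.589 points. The causes were not tested, except that other length limits change the genes tested.

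With 1 batch or library left out, the share differed from AGTuC by 1.68 to 1.80 points and the promoter share by -4.92 to -4.50 points, with p up to 0.0909 where 1 AGTuC library is left, the smallest 10 against 1 can give. From inAGTuC the share differed by 0.0556 to 0.353 points (exact permutation, p from 0.140). The promoter share differed from inAGTuC by -0.0764 to 0.0016 points, so that its sign turned (exact permutation, p from 0.346). Genes with more sense reads numbered 63 to 74 and those with more antisense reads 1 (without Exp208) to 2. The profile ratio was -0.41 to -0.29, the step ratio -0.52 to -0.39, and pairs within 50 bp had 1.28 to 1.76. No paired analysis was possible because replicate numbers are accession order, and of the 10 batches used only Exp208 also holds inAGTuC libraries (Exp234 and Exp261 hold both kinds but are not among the 10). Depth limits promoter shares in scGRO-seq, which rest on 18 to 336 reads per batch, and the pairing of assays: AGTuC is 1 batch. Molecules shared between libraries were dropped without knowing their origin.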

Other observations

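Cntnap2 had 79 sense and 762 antisense reads in AGTuC, and 3 of the 10 scGRO-seq batches had more sense than antisense density on it (log2 ratio -0.06 ± 0.19, adjusted p = 0.824, limma). Of the 79 sense reads, 33 lay in the last 56.99 kb of the span, after the inner curated start 2184 kb into the gene, and 14 of these 33 are the reads by which that start was chosen. Ctnnd2, a catenin of neurons, had 34.3% of its 143 AGTuC reads in the first 500 bp, where scGRO-seq had 0.142% of 2826 reads.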
